A study of Mus musculus with 6 samples.

Results

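Basement membranes are thin sheets of extracellular matrix that separate cells from connective tissue or wrap individual cells, and their genes were followed in the mouse pre-osteoblast line MC3T3-E1, with and without knockdown of the histone deacetylase gene Hdac4. The group was chosen by name, with earlier results of these data known, so its comparisons with all genes are descriptive. It comprised 31 genes for collagen IV chains, laminin chains, nidogens, heparan sulfate proteoglycans, multiplexin collagens and associated proteins, all of which were found among the 53801 gene identifiers counted. Of these, 26 were among the 14531 genes with enough counts to be tested. Messenger RNA selected by poly-A was sequenced in 3 scramble control libraries and 3 Hdac4-knockdown libraries. The scramble cells carried a lentiviral vector for a scrambled non-silencing RNA. The knockdown cells carried the same vector with an shRNA against Hdac4, which the labels call Hdac4-shRNA and which the study names Hdac4-shRNA3. Both groups expressed ZsGreen1 and were selected with puromycin at 5 μg/ml for 7 days, so each group was a stably infected population. The 3 RNA samples of a group were prepared independently, but whether they came from separate infections was not stated, and the p-values measure only the spread between these samples.

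A basement membrane is built on a laminin network, assembled from trimers of an α, a β and a γ chain at the cell surface, and on a collagen IV network, whose trimers are covalently cross-linked outside the cell. Nidogens and the proteoglycans perlecan and agrin bridge the networks, and integrins and dystroglycan bind the laminin α chains. Laminins with the α5 chain are typical of mature epithelial and vascular basement membranes, whereas the α4 chain is typical of mesenchymal and endothelial cells. In bone, osteoblasts lie in a matrix dominated by fibrillar collagen, and basement membranes are found mainly around vessels, nerves and marrow adipocytes.

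Each library held between 29096544 and 31651826 counts on genes, and libraries of the same group differed by more than sampling noise (chi-square per degree of freedom 3.38 to 9.15). Hdac4 lay between 39.9 and 40.7 CPM (counts scaled to TMM-adjusted library size) in scramble libraries and between 28.8 and 30.7 CPM in knockdown libraries (log2 fold change -0.44, SE 0.057, edgeR adjusted p = 8.98e-07). The 7 osteoblast markers summed to 3547 to 3581 CPM in scramble and 12901 to 13514 CPM in knockdown libraries. Of these, Col1a1, the main fibrillar collagen gene of bone, rose from 338 to 11015 CPM (log2 fold change 5.03, edgeR adjusted p = 6.19e-24). Spp1, which encodes osteopontin, fell from 3154 to 2046 CPM (log2 fold change -0.62, edgeR adjusted p = 1.82e-12). Runx2 rose from 69.9 to 79.5 CPM (log2 fold change 0.19, edgeR adjusted p = 0.00719). Sp7, at most 0.234 CPM in any scramble library, rose from 0.145 to 2.71 CPM on average (log2 fold change 4.18, edgeR adjusted p = 4.52e-09). Sp7 had enough counts to be tested only through knockdown libraries, and the size of its fold change rests on few scramble counts. Alpl had at most 3 counts, Bglap at most 12 and Ibsp at most 7 in any library. The 7 endothelial genes summed to 0.262 to 0.421 CPM in scramble and 2.84 to 3.16 CPM in knockdown libraries, with Emcn and Cldn5 at 0, and the 7 epithelial genes to 5.93 to 6.87 and 7.63 to 9.06 CPM, most of it Krt14. The 4 Schwann cell genes summed to 1.47 to 2.16 CPM in scramble and 4.85 to 5.53 CPM in knockdown libraries, with Sox10 at 0. The 4 macrophage genes summed to 1.60 to 2.59 and 2.69 to 3.13 CPM, with Adgre1 at 0. The 5 smooth muscle genes summed to 1031 to 1064 CPM in scramble libraries and to 235 to 261 CPM in knockdown libraries. Most of that was Des and Acta2, whereas Myh11, a defining marker, had at most 14 counts in any library. The 4 adipocyte genes fell from 77.4 to 87.0 CPM down to 20.9 to 24.7 CPM, almost all of it Lpl. The part of these shifts in the results was not tested. In bulk RNA, fewer cells of a type and less RNA per cell cannot be told apart.

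To see which basement membrane genes changed after Hdac4 knockdown, counts were compared with edgeR over all 14531 tested genes. A gene was called where its adjusted p lay under 0.05 and its log2 fold change exceeded 0.05 in either direction. Of the 26 tested members, 14 were upregulated, 8 were downregulated and 4 were not called. Across all tested genes, 75.1% were called, 38% as upregulated and 37.1% as downregulated, so most genes of any kind passed this threshold. A larger threshold separates the members more: 9 members rose with a log2 fold change above 1, against 16.5% of all genes, and 5 fell with one below -1, against 10.6% of all genes. The median log2 fold change of the 26 was 0.32 (0.32 also with Col4a3 at its lower bound), against 0.01 for all genes, and its median size was 1.41 against 0.46. The scramble and knockdown libraries did not overlap for 22 of the 26, against 76.8% of all tested genes, with 14 higher in knockdown libraries (38.8% of all genes) and 8 lower (38%). Col4a3, Lama1 and Smoc1 passed the filter on low counts only through their higher level in knockdown libraries, and such a filter favours genes that differ. Lama3, with 7 counts in scramble replicate 2, also needed knockdown libraries to pass and was not called. Genes with at least 1 count numbered 19373 to 19797 in scramble and 22148 to 22640 in knockdown libraries, and the part of this in the scarce members was not tested. Under a filter of 10 or more counts in each library, 22 members were tested, of which 12 were upregulated, against 37.7% of the 12487 genes tested under that filter, and 7 were downregulated, against 37.4%. Of the 12, 6 had a log2 fold change above 1, against 10.8% of those genes.

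**Figure D1:**
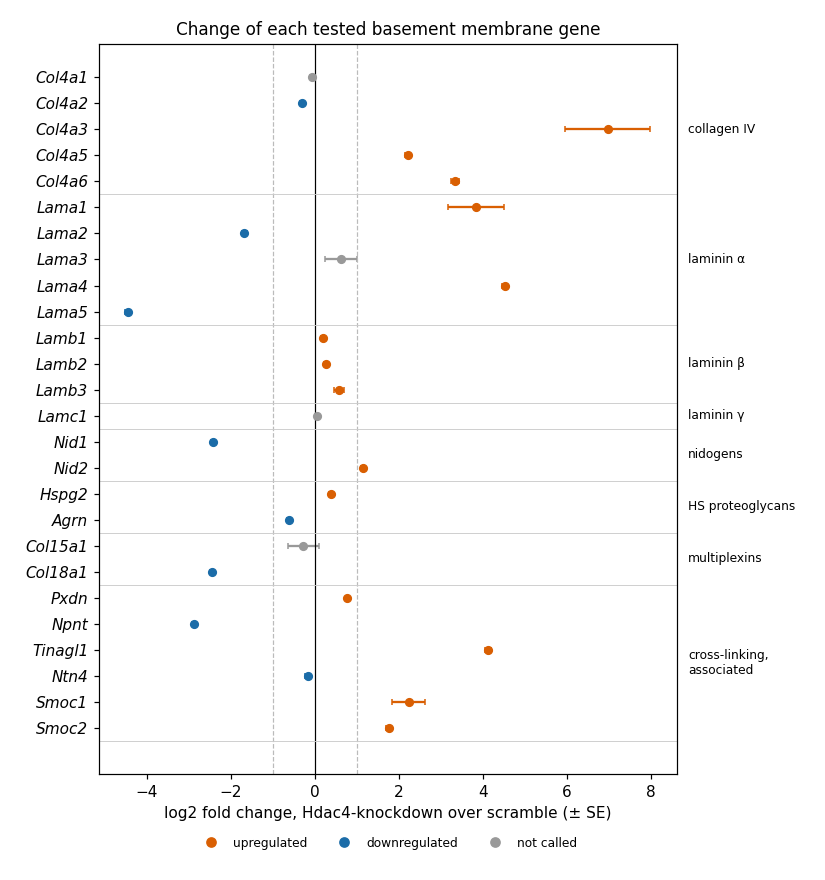
Log2 fold change (horizontal axis, Hdac4-knockdown over scramble, bars are SE) of the 26 tested basement membrane genes, grouped by role, with dashed lines at -1 and 1. Lama5 at -4.46 and Lama4 at 4.52 lie at opposite ends among genes with counts in both groups, the laminin β and γ chains lie between 0.05 and 0.58, and Col4a3 at 6.98 has the widest error bar because it had no counts in scramble libraries.

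The 6 collagen IV genes lie in 3 head-to-head pairs, in which the partners start close together and are transcribed away from each other. Col4a1 and Col4a2 on chromosome 8 overlap by 22 bases at their annotated starts (GENCODE M21, GRCm38), Col4a4 and Col4a3 on chromosome 1 are separated by 71 bases, and Col4a6 and Col4a5 on the X chromosome by 1308 bases. RefSeq promoter windows (GRCm38.p6, 250 bases before to 50 after the start) were at hand for 21 of the 31 members, in 27 windows. The sequences of the X chromosome pair are shown because both its genes rose, the stretch between Col4a4 and Col4a3 because it is the whole of the space between those genes, and that of Lama5 because its gene fell most. They hold the exon-free part of the 250 bases before the start, 5′ to 3′ on the strand of the gene, and capitals mark the letters CCAAT or GGGCGG on either strand.

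Col4a6 (chrX:141474077-141474326, minus strand): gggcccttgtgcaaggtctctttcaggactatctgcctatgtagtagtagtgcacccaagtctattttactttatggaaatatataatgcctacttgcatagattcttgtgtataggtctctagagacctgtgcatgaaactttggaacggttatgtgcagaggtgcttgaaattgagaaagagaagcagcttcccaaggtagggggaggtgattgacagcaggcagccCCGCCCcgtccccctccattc
Col4a5 (chrX:141475169-141475384, plus strand): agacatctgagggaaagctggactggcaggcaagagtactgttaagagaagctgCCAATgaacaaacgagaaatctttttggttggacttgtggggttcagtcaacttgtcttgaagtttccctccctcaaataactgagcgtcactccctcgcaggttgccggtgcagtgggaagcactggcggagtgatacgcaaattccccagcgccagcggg
Col4a4 to Col4a3 (chr1:82586850-82586920, minus strand): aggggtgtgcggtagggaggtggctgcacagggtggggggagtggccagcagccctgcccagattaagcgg
Lama5 (chr2:180225860-180226109, minus strand): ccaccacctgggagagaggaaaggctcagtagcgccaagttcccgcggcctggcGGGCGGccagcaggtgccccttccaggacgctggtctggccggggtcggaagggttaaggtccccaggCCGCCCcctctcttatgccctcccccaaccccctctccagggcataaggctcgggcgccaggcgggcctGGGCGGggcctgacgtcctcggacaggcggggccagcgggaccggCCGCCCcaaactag

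The run before Col4a6 holds 1 GGGCGG and the run before Col4a5 holds 1 CCAAT, the stretch between Col4a4 and Col4a3 holds neither, and the run before Lama5 holds 4 GGGCGG. Over the full windows, 9 of the 27 member windows hold CCAAT, against 37.4% of all 32851 windows, and 16 hold GGGCGG, against 35.7% of all windows. The MEF2 consensus, searched on both strands because class IIa deacetylases bind MEF2 factors, was in 0 of the 27 member windows and in 3.2% of all windows, which says only that these letters are not in these windows.

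Col4a1 and Col4a2 stayed the main collagen IV chains by mRNA, with smaller shares, while the shares of Col4a5 and Col4a6 rose. Col4a1 (ENSMUSG00000031502, chromosome 8, 11198423 to 11312826) and Col4a2, which form the widespread network, had the highest collagen IV levels per kilobase of exon in both groups. Col4a1 was at 618, 680.3 and 654 CPM in the scramble libraries and at 616, 628 and 605 CPM in the knockdown libraries. The groups overlapped and Col4a1 was not called (log2 fold change -0.08, SE 0.0403, edgeR adjusted p = 0.086). It passed as downregulated without scramble replicate 1 (-0.12, edgeR adjusted p = 0.0155), without Hdac4-knockdown replicate 2 (-0.09, edgeR adjusted p = 0.0424) and with no filter beyond 1 count (-0.11, edgeR adjusted p = 0.01498). Col4a2 was at 435, 475 and 466 CPM in scramble and at 372, 394 and 354 CPM in knockdown libraries. All knockdown libraries were lower, and Col4a2 was downregulated to 81.4% of the scramble level (log2 fold change -0.30, SE 0.0451, edgeR adjusted p = 7.27e-06).

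The X-linked partners rose together, by different amounts. Col4a5 (ENSMUSG00000031274, X chromosome, 141475385 to 141689234), whose chain enters networks of kidney, lung and smooth muscle basement membranes, was at 37.7, 40.7 and 36.7 CPM in scramble libraries and at 187, 170.1 and 176 CPM in knockdown libraries. Every knockdown library was above every scramble library, and the mean was 4.63 times higher (log2 fold change 2.21, SE 0.0525, edgeR adjusted p = 3.32e-18). Col4a6 (ENSMUSG00000031273, X chromosome, 141165403 to 141474076), its partner in smooth muscle basement membranes, was at 4.97, 5.41 and 3.44 CPM in scramble and at 46.5, 49.7 and 44.3 CPM in knockdown libraries. It rose more, 10.2 times (log2 fold change 3.34, SE 0.104, edgeR adjusted p = 2.39e-16). The log2 ratio of Col4a5 to Col4a6 counts therefore moved from 3.08 ± 0.286 to 1.92 ± 0.129 (SD, n = 3), without overlap of the groups. In a two-sided exact permutation test this gave p = 0.1, the lowest value possible for 3 libraries against 3, and an adjusted p = 0.133 over the 8 pairs of related genes compared. The same p-values held for Col4a1 to Col4a2, Col15a1 to Col18a1, Lama4 to Lama5, Nid1 to Nid2 and Hspg2 to Agrn.

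The pair on chromosome 1, whose chains form the network of the glomerulus and cochlea, was at the limit of detection. Col4a3 had 0 counts in each scramble library and 13, 17 and 18 counts in the knockdown libraries, at least 15.3-fold higher against a floor of 3 counts over the scramble group (edgeR adjusted p = 7.07e-06). It shares 563 of its 9967 exon bases with the antisense gene C430014B12Rik, and without strand the reads of that part cannot be assigned. Col4a4 had 4, 9 and 4 counts in scramble and 9, 8 and 11 counts in knockdown libraries and was not tested (ratio 1.57, 95% exact interval 0.831 to 3.06, counting error only).

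Per kilobase of exon, the share of Col4a5 in all collagen IV mRNA rose from 3.51% ± 0.159 to 15.4% ± 0.879 (SD, n = 3), and that of Col4a6 from 0.355% ± 0.08 to 3.43% ± 0.115. The share of Col4a1 fell from 53.6% ± 0.143 to 48.2% ± 0.442, and that of Col4a2 from 42.6% ± 0.323 to 32.9% ± 0.958. The groups did not overlap for these shares (exact permutation p = 0.1 each). The summed level of the 6 genes was 163 ± 7.53 CPM per kilobase in scramble and 171 ± 4.60 CPM per kilobase in knockdown libraries, with overlapping groups (exact permutation p = 0.2).

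**Figure D2:**
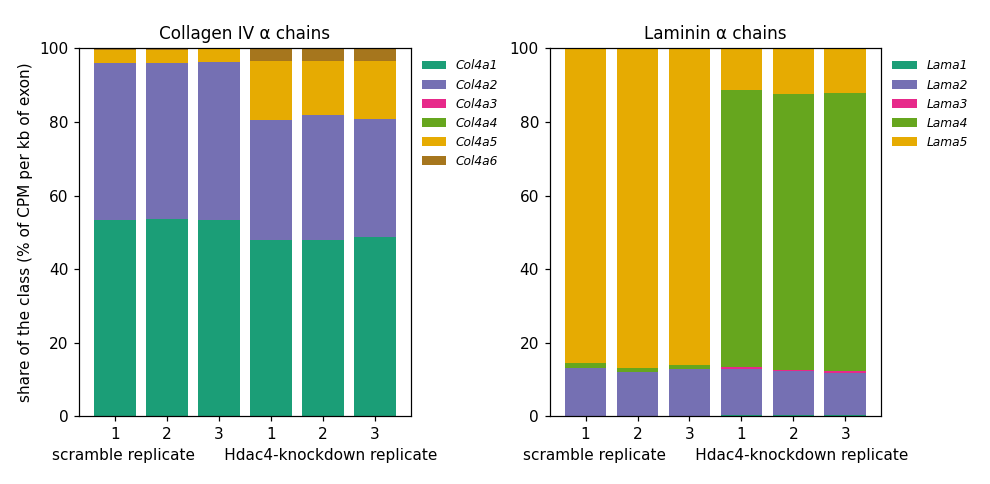
Share of each chain in its class (percent of CPM per kilobase of exon, stacked to 100) in each of the 6 libraries, for the collagen IV chains (left) and the laminin α chains (right). Col4a5 and Col4a6 take a larger share in all knockdown libraries, and the main laminin α chain changes from Lama5, at 85.6% to 86.9% in scramble libraries, to Lama4, at 75.0% to 75.8% in knockdown libraries.

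The laminin α chains, which carry the binding sites for cell surface receptors, held the largest changes among members with counts in every library. Lama5 (ENSMUSG00000015647, chromosome 2, 180176373 to 180225859), which encodes the α5 chain and whose upstream sequence is printed above, was at 435, 484 and 464 CPM in scramble libraries. It was at 20.2, 22.0 and 20.6 CPM in knockdown libraries, or 4.54% of the scramble level (log2 fold change -4.46, SE 0.0546, edgeR adjusted p = 1.65e-22). Lama4 (ENSMUSG00000019846, chromosome 10, 38965515 to 39110188), which encodes the shorter α4 chain, was at 6.19, 6.45 and 5.75 CPM in scramble and at 143, 141 and 138 CPM in knockdown libraries. All knockdown libraries were far above all scramble libraries, and the mean rose 23.0 times (log2 fold change 4.52, SE 0.0612, edgeR adjusted p = 7.18e-22). The log2 ratio of Lama4 to Lama5 counts moved from -6.23 ± 0.0996 to 2.75 ± 0.0695 (SD, n = 3), a difference of 8.98 (SE 0.0701), the largest of the 8 pairs compared.

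Lama2, which encodes the α2 chain of muscle and nerve laminin, was at 95.5, 95.8 and 98.2 CPM in scramble libraries and at 31.8, 30.7 and 27.8 CPM in knockdown libraries. It fell to 31.2% of the scramble level without overlap (log2 fold change -1.68, SE 0.0548, edgeR adjusted p = 5.13e-16). Lama1, the α chain of the early embryo, had 0, 1 and 2 counts in scramble and 19, 13 and 18 counts in knockdown libraries, a ratio of 15.9 (95% exact interval 5.14 to 79.7, counting error only, edgeR adjusted p = 3.81e-05). Lama3, the α chain of epithelial laminin, had 7 to 23 counts in scramble and 22 to 26 in knockdown libraries. Its groups overlapped and it was not called (log2 fold change 0.62, SE 0.39, edgeR adjusted p = 0.155), but it passed without scramble replicate 3 (1.09, edgeR adjusted p = 0.0404).

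Of the β and γ chains, which join the α chain in every trimer, the 3 tested β chains rose, against 38% of tested genes. Their log2 fold changes were from 0.19 to 0.58, and the γ chain gene Lamc1 was not called. Lamb1, the main β chain here, was at 436, 461 and 467 CPM in scramble and at 510.2, 530.3 and 510.2 CPM in knockdown libraries. The knockdown libraries were all higher, by a small margin (log2 fold change 0.19, SE 0.0391, edgeR adjusted p = 0.000289). Lamb2, the β chain of synapses and the glomerulus, rose to 119.7% of its scramble level of 98.4 ± 3.01 CPM (SD, n = 3; log2 fold change 0.26, SE 0.0456, edgeR adjusted p = 4.01e-05). Lamb3, a chain of epithelial laminin, rose from 4.47 ± 0.149 to 6.70 ± 0.353 CPM (SD, n = 3; log2 fold change 0.58, SE 0.121, edgeR adjusted p = 0.00024). The Lamb1 to Lamb2 ratio differed by -0.07 on the log2 scale (SE 0.0409), with overlapping groups (two-sided exact permutation test p = 0.3).

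Lamc1, the γ chain of most laminins, was at 384, 399.6 and 398 CPM in scramble and at 415, 407 and 399 CPM in knockdown libraries. The groups overlapped and Lamc1 was not called (log2 fold change 0.05, SE 0.0377, edgeR adjusted p = 0.261), although it passed as upregulated with upper quartile normalization (0.14, edgeR adjusted p = 0.00278), with library size alone (0.10, edgeR adjusted p = 0.0161) and with at least 10 counts in each library (0.09, edgeR adjusted p = 0.0452). Lamc3 had at most 4 counts in any library and was not tested.

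Sums over each class were added after the single values were seen. Per kilobase of exon, α chain mRNA fell from 46.9 ± 2.18 to 15.5 ± 0.352 CPM per kilobase (SD, n = 3), while β chain mRNA was at 62.7 ± 1.87 and 72.5 ± 1.77 and γ chain mRNA at 47.7 ± 1.01 and 49.2 ± 0.948. The ratio of α to γ chain mRNA was 0.985 ± 0.0263 in scramble and 0.314 ± 0.00274 in knockdown libraries (SD, n = 3), without overlap. This size depends on the gene length used. With the longest transcript of each gene, which is 6046 bases for Lama4 against 12068 bases in all its exons, the ratio went from 0.997 ± 0.0228 to 0.531 ± 0.00403. Which transcripts were made was not measured. The share of Lama2 in α chain mRNA likewise was 12.6% and 11.9% with all exons, with overlapping groups, and 19.5% and 11.01% with the longest transcript.

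**Figure D3:**
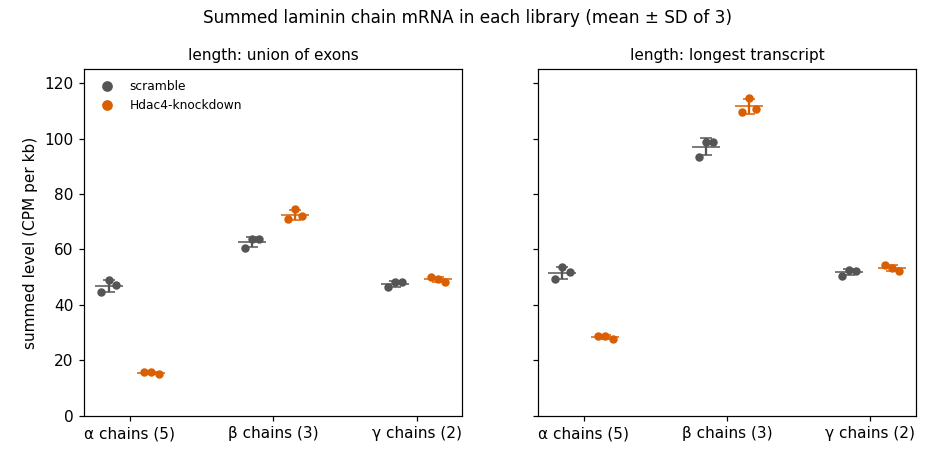
Summed level of laminin α, β and γ chain mRNA (CPM per kilobase) in each library, with the length of all exons (left) or of the longest transcript (right); points are libraries and bars are mean ± SD of 3. The α chain sum is lower in all knockdown libraries, at 15.5 or 28.4 against 46.9 or 51.6 CPM per kilobase, and the γ chain sums of the groups overlap.

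The nidogens, which link laminin to collagen IV, went in opposite directions. Nid1 (ENSMUSG00000005397, chromosome 13, 13437551 to 13512269) had the highest level per kilobase of all 31 genes in scramble cells. It was at 2164, 2196 and 2214 CPM in scramble libraries and at 416, 404 and 398 CPM in knockdown libraries. No library came near the other group, and Nid1 fell to 18.5% of the scramble level (log2 fold change -2.43, SE 0.0371, edgeR adjusted p = 3.69e-21). Nid2 (ENSMUSG00000021806, chromosome 14, 19751265 to 19811787), which can stand in for nidogen-1 in many tissues, was at 57.2, 56.6 and 54.8 CPM in scramble and at 120.3, 128 and 122 CPM in knockdown libraries. It rose 2.20 times (log2 fold change 1.14, SE 0.0465, edgeR adjusted p = 1.88e-14). The log2 ratio of Nid1 to Nid2 fell by 3.57 (SE 0.0489), from 5.28 to 1.72. Per kilobase of exon, Nid1 was still the higher in knockdown cells, at 58.5 against 23.9 CPM per kilobase. Nid2 shares 437 of its 5174 exon bases with the antisense gene Rtraf.

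The heparan sulfate proteoglycans also parted. Hspg2, which encodes perlecan, was at 649, 746 and 713 CPM in scramble and at 934, 943 and 865 CPM in knockdown libraries. It rose to 130.1% of the scramble level without overlap (log2 fold change 0.38, SE 0.0476, edgeR adjusted p = 6.21e-07). Agrn, which encodes agrin, the organizer of the neuromuscular junction, was at 287, 287 and 295 CPM in scramble libraries and at 188, 209 and 171 CPM in knockdown libraries, a fall to 65.3% (log2 fold change -0.61, SE 0.0547, edgeR adjusted p = 4.45e-09). The log2 ratio of Hspg2 to Agrn went from 1.28 to 2.28, a difference of 1.00 (SE 0.0779).

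Of the multiplexins, collagens that carry glycosaminoglycan chains and release anti-angiogenic fragments, Col18a1 fell and Col15a1 was scarcely expressed. Col18a1, the source of endostatin, was at 319, 346 and 337 CPM in scramble and at 59.2, 64.1 and 59.3 CPM in knockdown libraries. Its level in knockdown libraries was 18.2% of that in scramble libraries (log2 fold change -2.45, SE 0.0476, edgeR adjusted p = 1.33e-19). Col15a1 had 19 to 28 counts in scramble and 10 to 26 counts in knockdown libraries and was not called (log2 fold change -0.28, SE 0.37, edgeR adjusted p = 0.506).

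**Figure D4:**
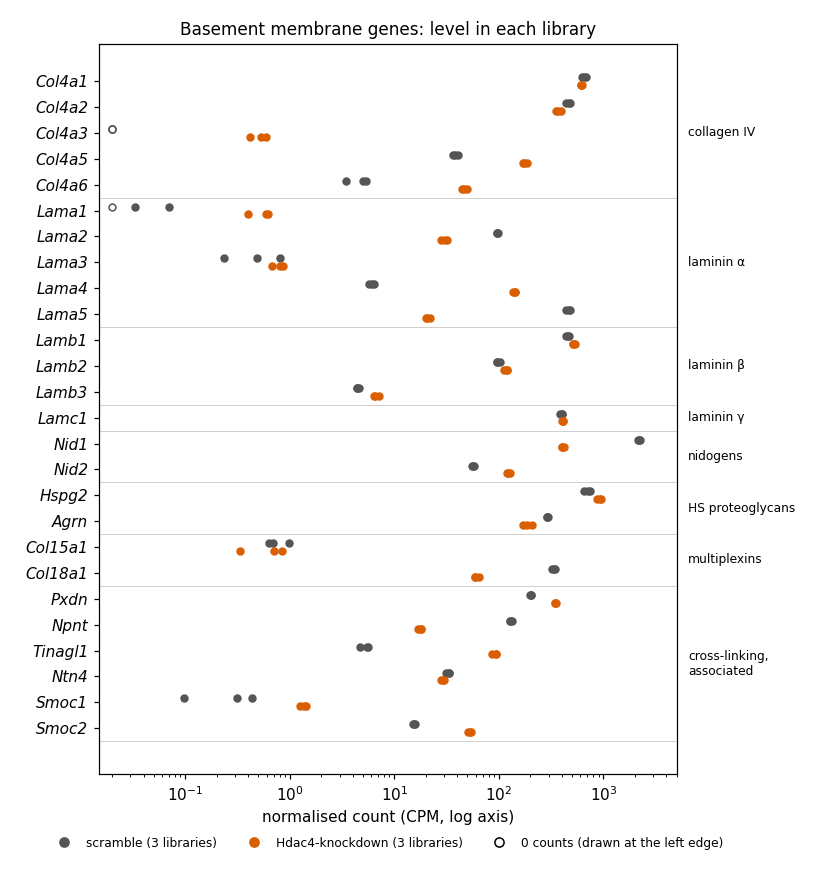
Normalised count (CPM, log axis) of the 26 tested basement membrane genes in each of the 6 libraries, with scramble libraries in grey and Hdac4-knockdown libraries in orange. Libraries of a group lie close together for all but the scarcest genes, and among genes with counts in every library the gaps between groups are widest for Lama4 and Lama5 (CPM is not corrected for gene length, so positions compare libraries, not genes).

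Among the cross-linking and associated proteins, 4 of 6 genes rose, against 38% of all tested genes, and 2 fell, against 37.1%. Tinagl1 (ENSMUSG00000028776, chromosome 4, 130164454 to 130175122), which encodes a laminin- and integrin-binding matrix protein, was at 5.43, 4.71 and 5.58 CPM in scramble libraries and at 85.5, 93.0 and 94.4 CPM in knockdown libraries. It rose 17.4 times, more than any other gene in this class (log2 fold change 4.12, SE 0.074, edgeR adjusted p = 4.12e-20). Npnt (ENSMUSG00000040998, chromosome 3, 132881745 to 132950291), which encodes nephronectin, a ligand of integrin α8β1, was at 129, 127 and 132 CPM in scramble and at 16.9, 17.9 and 17.9 CPM in knockdown libraries. It fell to 13.6% (log2 fold change -2.88, SE 0.0522, edgeR adjusted p = 4.69e-20).

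Pxdn, which encodes peroxidasin, the enzyme that forms sulfilimine cross-links between collagen IV trimers, was at 202, 205 and 199 CPM in scramble and at 341, 349 and 343 CPM in knockdown libraries. The groups stood well apart, with a rise of 1.71 times (log2 fold change 0.77, SE 0.0382, edgeR adjusted p = 4.16e-13). Smoc2, a calcium-binding matricellular protein of basement membranes, was at 15.4, 15.9 and 15.1 CPM in scramble and at 50.3, 54.3 and 52.7 CPM in knockdown libraries (log2 fold change 1.76, SE 0.0621, edgeR adjusted p = 1.76e-15). Its relative Smoc1 rose from 3 to 13 counts in scramble libraries to 40 to 43 counts in knockdown libraries (log2 fold change 2.24, SE 0.39, edgeR adjusted p = 3.73e-05), and the log2 ratio of the 2 genes did not separate the groups (difference 0.63, SE 0.597).

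Ntn4, a netrin that binds laminin γ chains and disrupts laminin networks, was at 30.9, 33.2 and 33.0 CPM in scramble and at 29.0, 29.8 and 27.7 CPM in knockdown libraries. The knockdown libraries were lower by a small margin (log2 fold change -0.17, SE 0.0615, edgeR adjusted p = 0.0193). This call was lost with library size alone (-0.11, edgeR adjusted p = 0.108), with upper quartile normalization (-0.08, edgeR adjusted p = 0.257) and with at least 10 counts in every library (edgeR adjusted p = 0.0629). It was also lost without scramble replicate 2 (edgeR adjusted p = 0.0545) and without Hdac4-knockdown replicate 3 (edgeR adjusted p = 0.0946).

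Fras1, Frem1 and Frem2, which encode the Fraser complex that anchors embryonic epidermis, had at most 2, 3 and 2 counts in any library and were not tested. Lower levels were not detectable at this depth.

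Genes that act with the basement membrane were read from the same fit, in lists drawn up with earlier results of these data known. Of 17 receptor genes, 16 were tested, of which 6 were upregulated and 7 downregulated (median log2 fold change -0.01, against 0.01 for all genes). Across all tested genes, 38% were upregulated and 37.1% downregulated. Itgb1, the integrin β1 subunit shared by most laminin and collagen receptors, was at 1178 ± 14.5 CPM in scramble and 1219 ± 65.5 CPM in knockdown libraries (SD, n = 3) and was not called (log2 fold change 0.05, SE 0.0401, edgeR adjusted p = 0.284). Itga7, which encodes a laminin-binding subunit known from muscle, fell from 520.3 ± 5.59 to 57.0 ± 2.97 CPM (SD, n = 3; log2 fold change -3.19, SE 0.0459, edgeR adjusted p = 1.47e-21). Bcam, a receptor for the laminin α5 chain, fell from 6.58 ± 0.722 to 0.281 ± 0.108 CPM (SD, n = 3; log2 fold change -4.54, SE 0.24, edgeR adjusted p = 1.21e-12). Bcam lay between 0.186 and 0.399 CPM in knockdown libraries and passed the filter on low counts only through scramble libraries. The size of its fold change therefore rests on few knockdown counts.

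Itga8, the subunit that binds nephronectin, rose from 0.0553 ± 0.0678 to 5.33 ± 0.863 CPM (SD, n = 3; log2 fold change 6.47, SE 0.38, edgeR adjusted p = 6.81e-12), while the nephronectin gene itself fell as given above. Itga8 lay between 0 and 0.131 CPM in scramble libraries and passed the filter on low counts only through knockdown libraries. The size of its fold change therefore rests on few scramble counts. Sdc2, a heparan sulfate proteoglycan of the cell surface, rose from 219 ± 9.56 to 449 ± 17.96 CPM (SD, n = 3; log2 fold change 1.04, SE 0.0435, edgeR adjusted p = 2.84e-14).

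**Figure D5:**
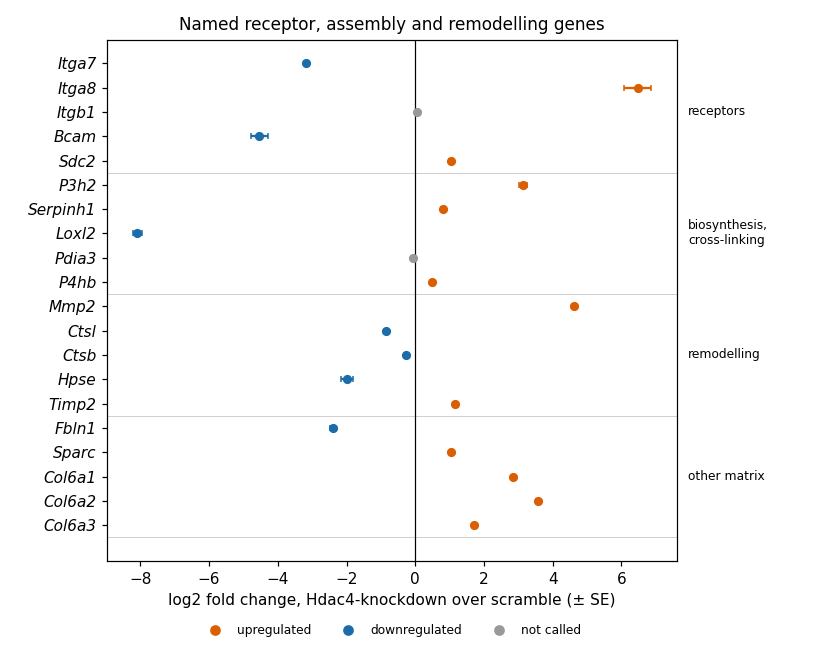
Log2 fold change (horizontal axis, Hdac4-knockdown over scramble, bars are SE) of 20 genes named from the lists of receptors, biosynthesis and cross-linking, remodelling and other matrix genes. Loxl2 at -8.08 and Itga8 at 6.47 mark the ends, and Itgb1 and Pdia3, in grey, were not called. Both ends rest on few counts in 1 group, with Loxl2 at 0.302 CPM in knockdown and Itga8 at 0.0553 CPM in scramble libraries.

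Of 15 genes that modify, fold, export or cross-link collagen IV, 14 were tested. Of the 14, 7 were upregulated, against 38% of all tested genes, and 4 downregulated, against 37.1% (median log2 fold change 0.21). Loxl2, whose product is a lysyl oxidase that cross-links collagen IV, fell from 82.5 ± 5.84 to 0.302 ± 0.113 CPM (SD, n = 3; log2 fold change -8.08, SE 0.126, edgeR adjusted p = 5.10e-21), the opposite direction to Pxdn. Loxl2 lay between 0.226 and 0.432 CPM in knockdown libraries and passed the filter on low counts only through scramble libraries. The size of this fold change therefore rests on few knockdown counts. P3h2, the prolyl 3-hydroxylase that acts on collagen IV, rose from 2.96 ± 0.113 to 25.8 ± 3.31 CPM (SD, n = 3; log2 fold change 3.13, SE 0.114, edgeR adjusted p = 3.06e-15). The collagen chaperone gene Serpinh1 and the prolyl hydroxylase subunit gene P4hb rose with log2 fold changes of 0.80 and 0.48 (edgeR adjusted p = 1.89e-13 and 3.40e-10), and Pdia3 was not called (-0.08, edgeR adjusted p = 0.0619).

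Of 11 remodelling genes, 6 were upregulated, against 38% of all tested genes, and 4 downregulated, against 37.1% (median log2 fold change 1.00). Mmp2, a gelatinase that degrades collagen IV, rose from 24.1 ± 0.508 to 598 ± 24.1 CPM (SD, n = 3; log2 fold change 4.63, SE 0.0495, edgeR adjusted p = 5.10e-23), and Timp2, which takes part in its activation and inhibition, rose as well (log2 fold change 1.16, SE 0.0571, edgeR adjusted p = 3.98e-13). The cathepsin genes Ctsl and Ctsb fell with log2 fold changes of -0.85 and -0.26 (edgeR adjusted p = 1.20e-13 and 2.87e-06). Hpse, which encodes heparanase, the enzyme that cuts heparan sulfate, fell from 4.89 ± 0.563 to 1.23 ± 0.167 CPM (SD, n = 3; log2 fold change -1.98, SE 0.186, edgeR adjusted p = 9.57e-09).

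Of 17 further genes of basement membranes and the adjoining matrix, 12 were tested. Of the 12, 7 were upregulated, against 38% of all tested genes, and 5 downregulated, against 37.1% (median log2 fold change 1.09). Col6a1, Col6a2 and Col6a3, whose collagen VI anchors basement membranes to the interstitial matrix, rose with log2 fold changes of 2.86, 3.56 and 1.71 (edgeR adjusted p = 1.13e-21, 1.67e-22 and 3.13e-18). Sparc, a collagen IV chaperone abundant in bone, rose from 941 ± 15.5 to 1929 ± 31.8 CPM (SD, n = 3; log2 fold change 1.04, SE 0.0352, edgeR adjusted p = 9.89e-16). Fbln1, a fibulin that binds laminin and nidogen, fell from 59.4 ± 2.09 to 11.2 ± 1.03 CPM (SD, n = 3; log2 fold change -2.40, SE 0.0697, edgeR adjusted p = 7.85e-17).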

How the data were processed

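Poly-A selected RNA from 3 scramble and 3 Hdac4-knockdown MC3T3-E1 samples was sequenced with a library kit that does not mark strand. The submitters' processing notes name STAR 2.7.3a, HTSeq 0.12.4 and mm10; the annotation release is not given in the sources used here. For each library the authors deposited raw read counts for 53801 Ensembl genes, not normalized. Lines for reads outside genes, shared between genes or aligned to several places, 14.3% to 15.0% of each table, were left out. Reads shared between overlapping genes are thus in no gene.

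Symbols, positions and exon lengths came from GENCODE M21 (GRCm38), and promoter sequences from RefSeq (GRCm38.p6). The test was edgeR's quasi-likelihood F test (version 4.0.16, R 4.3.3) with TMM, filterByExpr and Benjamini-Hochberg adjustment over 14531 genes, and it was checked on counts drawn with known changes. CPM uses TMM library sizes. Ratios used a pseudocount of 0.5 counts and two-sided exact permutation tests. Counting intervals are 95% exact binomial ones. Alternatives were other normalizations, filters, DESeq2 1.42.0, limma-voom (limma 3.58.1), the replicate block and leaving out each library.

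The members and lists were chosen with earlier results of these data known. Named genes are all 31 members, Hdac4 and, from each related list, the 3 with the highest mean CPM and the called ones that rose and fell most. Marker lists are given as sums, with their 2 genes of highest mean CPM where shown. Defining markers near 0, Runx2 and Sp7 were named after their values were seen.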

Additional observations from a re-analysis of the deposited data

Results flagged for a closer look

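Reads outside annotated genes, a line of the deposited tables that no comparison used, made up 4.64% to 5.07% of the total in Hdac4-knockdown libraries and 3.17% to 3.41% in scramble libraries, so every knockdown library was above every scramble library. Reads shared between genes (6.36% to 6.51% in scramble, 5.84% to 5.92% in knockdown libraries) and reads aligned to several places (4.61% to 4.77% and 3.88% to 4.15%) separated the groups the other way. The part of these lines in the values of the basement membrane genes was not tested. No group was large enough for the test of a single outlying sample.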

How the results depend on the processing

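Across 14 alternatives, 12 to 15 basement membrane genes were upregulated and 7 to 9 downregulated. The alternatives were other normalizations, filters and tools, the replicate block and leaving out each library. Over these alternatives, 4709 to 6316 of all genes were upregulated and 4608 to 5789 downregulated, with 12487 to 28015 genes in each fit. Upper quartile normalization gave 6316 upregulated and 4608 downregulated of 14531 genes, against 5521 and 5393 in the main fit. Of 360 values of single members, 346 kept their direction and their side of the threshold, 5 lost a call, all of them for Ntn4, and 7 gained one, for Col4a1, Lamc1 and Lama3. The other 2 changed sign without a call: Col4a1 with upper quartile normalization (0.01) and Col15a1 without Hdac4-knockdown replicate 3 (0.02). Scaling moved the median log2 fold change of all genes by at most 0.089, with upper quartile normalization, so differences of that size, as for Col4a1, Lamc1 and Ntn4, depend on it. Same-numbered libraries of the groups did not deviate together (correlations -0.0111, 0.027 and 0.0166), and the labels do not say that the numbers pair them. With the replicate number as a block, 14 members were upregulated and 8 downregulated, and no member's call changed. Of all 14531 genes tested with this block, 5523 were upregulated and 5441 downregulated. With the longest transcript as gene length, the share of Lama4 among laminin α chains differed by 80.1 percentage points and that of Lama5 by -72.0, against 74.3 and -74.3 with all exons. The lengths differ by construction, with a longest transcript of 6046 of 12068 exon bases for Lama4 and 11388 of 11388 for Lama5. Depth limits Col4a3, Col4a4, Lama1, Lama3, Lamc3, Col15a1, Smoc1 and the Fraser complex genes, whose values rest on few counts.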
